A study of Rattus norvegicus with 24 samples.

Results

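The 10 serotonin receptor genes described here are Htr1a, Htr1b, Htr1d, Htr2a, Htr2b, Htr2c, Htr3a, Htr4, Htr6 and Htr7, measured in thoracic propriospinal (TPS) neurons of the rat spinal cord after a complete low thoracic transection. They were taken by gene symbol from the 14324 genes named on the array, and each of the 10 was represented by 1 probe set, called a probe below. TPS neurons have their cell bodies in the thoracic cord and send axons down to the lumbar enlargement, so the transection cuts their axons. According to the study's methods the dissected cell bodies lay rostral to the cut, so the receptors were read above the transection and not below it.

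Female Long Evans rats 77 ± 10 days old were used throughout, 1 array per rat and 24 arrays in all. The transected rats comprised 4 studied at 3 days, 4 at 1 week, and 2 each at 2 weeks and at 1 month after the cut. The uninjured controls comprised 4 rats in each of 3 groups, labelled 4 days, 2 week and 1 month. The methods give other times for these controls, counted from the tracer injection, and by those times the rats at 1 week had carried the tracer longer than the controls they are set against. The labels' names are kept here. All rats, controls included, received a fluorescent retrograde tracer in the lumbosacral enlargement, and the labelled neurons of the intermediate gray matter were cut out singly with a laser, pooled for each rat and amplified before hybridisation. The dissection was therefore aimed at neurons that project to the lumbar cord, that took up the tracer and that were still present when the cord was taken, and RNA of other cells was also read on the arrays, as given below. The rats at 3 days and at 1 week were compared with the same 4-day controls, those at 2 weeks with the 2-week controls, and those at 1 month with the 1-month controls.

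Serotonin reaches the spinal cord almost wholly along axons that descend from the raphe nuclei of the brainstem, and it sets the excitability of locomotor circuits, motor neurons and sensory relays. Its receptors fall into classes by what they couple to. The Htr1 receptors act through Gi/o proteins and lower cyclic AMP, the Htr2 receptors act through Gq proteins and phospholipase C, Htr3 is a ligand-gated cation channel, and Htr4, Htr6 and Htr7 act through Gs proteins and raise cyclic AMP.

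All 10 receptor probes passed the filter on low values, a mean log2 intensity of 5.05 (33.2 on the linear scale), below which the lowest 15 percent of the probes lay. None of them was at the lowest value of the table, a log2 intensity of 4.09, on any array. The mean log2 intensity over the 24 arrays was 6.06 for Htr1a, 7.45 for Htr1b, 6.22 for Htr1d, 6.90 for Htr2a, 5.35 for Htr2b, 8.78 for Htr2c, 5.85 for Htr3a, 7.04 for Htr4, 5.54 for Htr6 and 6.93 for Htr7. Probes differ in affinity, so these levels describe each probe and do not rank the receptors by amount of RNA.

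By the filter no receptor was at the floor, and Htr2b came closest, with 1 array of 24 below the filter level. As a looser description of low values, chosen after the data had been seen, 59 olfactory receptor probes had a median log2 intensity of 5.17 and a 95th percentile of 6.67, and 39.0% of them lay below the filter. Htr2c, Htr1b, Htr4, Htr7 and Htr2a had means above that 95th percentile, whereas Htr1d, Htr1a, Htr3a, Htr6 and Htr2b had means inside the range of those probes. The Htr6 probe carried little information of its own. On 15 of the 24 arrays it held one and the same value, an intensity of 45.9, and its SD within groups was 0.038 on the log2 scale. Such repeats were uncommon, with 12 or more arrays sharing 1 value in 3.72% of all probes and at most 3 arrays doing so in the other 9 receptors.

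**Figure D1:**
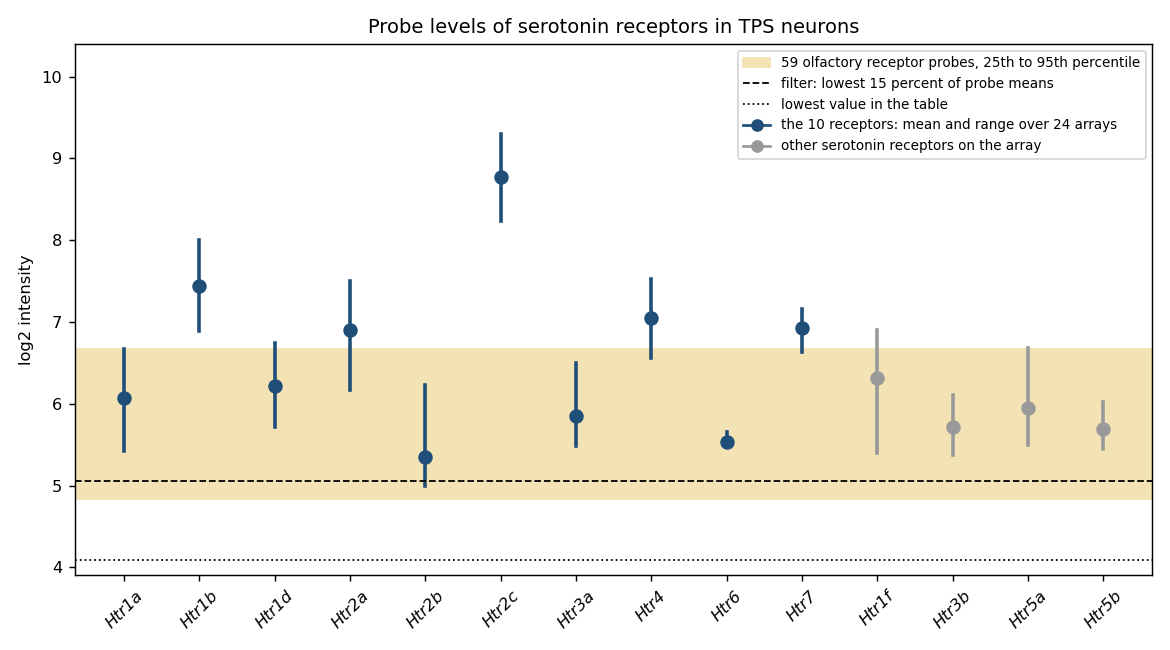
Mean log2 intensity (point) and range over 24 arrays (line) for the probe of each of the 10 receptors (blue) and of the 4 other serotonin receptors on the array (grey), with the filter level of 5.05 dashed and the lowest value of 4.09 dotted. The shaded band runs from the 25th percentile, 4.83, to the 95th percentile of the 59 olfactory receptor probes, 6.67, and the means of 5 of the 10 receptors lie above it.

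The arrays read neuronal markers strongly, and those of glia as well, with mean log2 intensities of 11.23 for the myelin gene Mbp and 11.73 for the astrocyte gene Aldoc. The mean of 10 neuron markers lay between 10.73 and 11.09 on the log2 scale on all arrays, and 1 of the 10, Rbfox3, the nuclear protein NeuN, was lower at 3 days (log2 difference -0.40, limma adjusted p = 0.0386), beside 0.886% of all probes lower by this rule. Markers of microglia were higher at 3 days. Their mean was 9.10 to 9.63 in the 4 rats at 3 days, against 7.31 to 8.84 in the 4-day controls, and 7 of 10 were higher past the threshold, beside 2% of all probes, among them the complement gene C1qb (log2 difference 1.19, limma adjusted p = 9.5e-05). The microglial mean was 8.62 to 9.16 at 1 week, which overlapped the 4-day controls. It was 8.25 to 8.65 at 2 weeks, above all 2-week controls (7.45 to 7.94). At 1 month it was 8.12 to 8.25, above all 1-month controls (7.45 to 7.73). No microglial marker passed the threshold at these later times, nor did any other probe. At 3 days 2 of 9 astrocyte markers were lower (Slc6a11 and Kcnj10), 1 of 9 oligodendrocyte markers (Cldn11) and 1 of 7 vessel markers (Tagln) were higher, and none of the 8 blood cell or 4 ependymal markers tested passed the threshold. The astrocyte list was mixed. Gfap and Slc1a3 had log2 differences of 0.91 and 0.22 (limma adjusted p = 0.230 and 0.752), and the rest of the 9 lay below 0. What part these other cells have in the receptor values was not tested, and in RNA from pooled cells fewer cells of a type cannot be told apart from less RNA per cell.

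At 3 days Htr1a, the Gi/o-coupled receptor that serves as an autoreceptor on raphe neurons and as an inhibitory receptor elsewhere, was lower in transected rats. Its log2 intensities were 5.94, 5.93, 5.66 and 5.43 in the 4 rats at 3 days, against 6.25, 6.05, 6.67 and 6.56 in the 4-day controls. Every transected rat lay below every control, as in 2.76% of all probes. The 2 controls with the highest values, numbers 3 and 4, stood above the other 2. Of these, control 3 had the lowest microglial marker mean of its group, 7.31, and control 4 one of 8.55. The linear intensity averaged 54.0 ± 8.89 in rats at 3 days and 84.6 ± 16.1 in the 4-day controls (SD, n = 4 each).

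The log2 difference of Htr1a at 3 days was -0.64 (SE 0.15, 95% interval -0.95 to -0.33), a ratio of 0.640, with a limma adjusted p of 0.0202 after Benjamini-Hochberg adjustment over 23240 probes. An exact two-sided permutation test gave p = 0.0286, the smallest that 4 against 4 allows. Htr1a was the 1 receptor of 10 to pass the threshold at 3 days, and 0.886% of all probes tested were lower by the same rule (2.89% in either direction). Its probe was a low one, with a mean log2 intensity of 6.06, inside the range of the olfactory receptor probes (95th percentile 6.67). The call did not hold without rat 4 of the 3-day group (adjusted p = 0.0825), without 4-day control 3 (0.0621) or without 4-day control 4 (0.0657), all by limma, and it was lost when the spread was estimated from the compared groups alone (limma adjusted p = 0.222).

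Htr1b, the Gi/o-coupled receptor of axon terminals, also separated the groups at 3 days. On the linear scale its intensities were 119.0, 128.7, 151.2 and 151.9 in rats at 3 days, against 255.8, 162.7, 152.3 and 205.4 in the 4-day controls. The highest transected rat lay just under the lowest control, so that the groups did not overlap, as in 2.76% of all probes with the transected rats lower and 5.51% in either direction. The log2 difference was -0.47 (SE 0.15, 95% interval -0.78 to -0.16), and it did not pass the threshold over all probes (limma adjusted p = 0.0997). An exact two-sided permutation test gave p = 0.0286, the smallest that 4 against 4 allows. As for Htr1a, this value follows from the lack of overlap and was not adjusted over receptors or times.

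Htr1d, the close relative of Htr1b, showed no such separation. Its log2 intensities were 6.13, 6.08, 6.34 and 6.08 in rats at 3 days, against 5.91, 6.43, 6.52 and 5.71 in the 4-day controls, so that the transected rats lay inside the range of the controls. The log2 difference was 0.011 (95% interval -0.34 to 0.36).

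**Figure D2:**
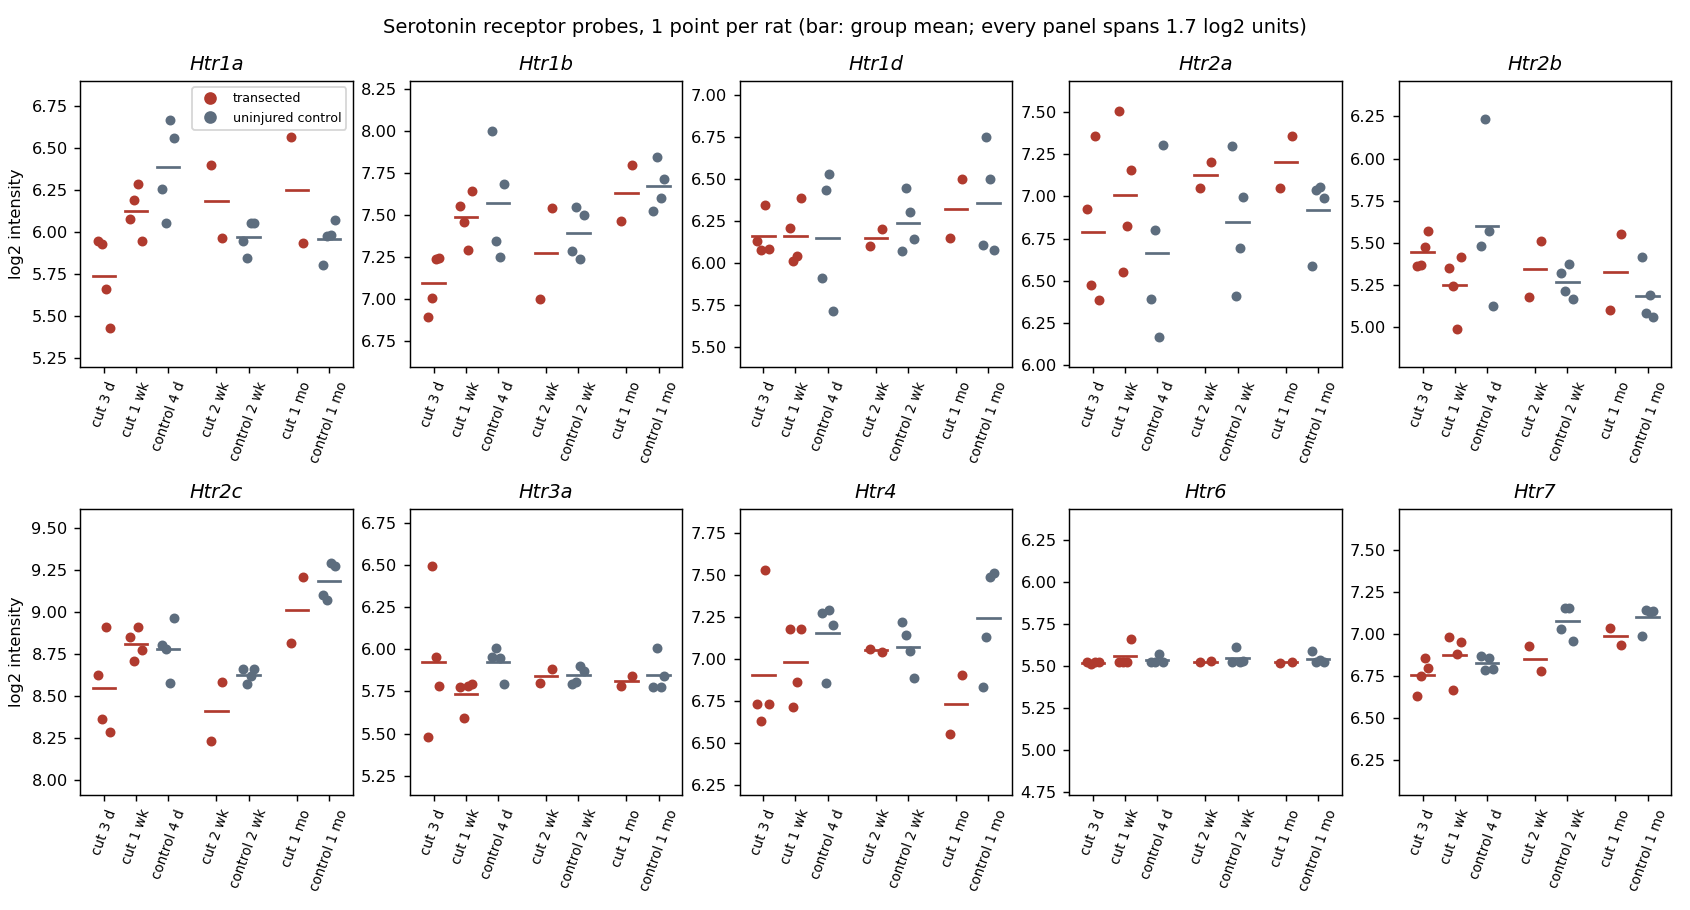
Log2 intensity of the 10 receptor probes, 1 point per rat, with transected rats (red, "cut") left of their uninjured controls (grey) and a bar at each group mean. Every panel spans the same width on the log2 scale. Only in Htr1a and Htr1b do all 4 rats at 3 days lie below all 4 of the 4-day controls. The same held in 2.76% of all probes.

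Among the Gq-coupled receptors, Htr2c is known in the cord for raising motor neuron excitability and for RNA editing that changes its coupling. Its log2 intensities at 3 days were 8.63, 8.37, 8.91 and 8.28, against 8.80, 8.78, 8.58 and 8.96 in the 4-day controls. Rats 2 and 4 lay below every control while rat 3 lay near the top, and the log2 difference was -0.23 (95% interval -0.49 to 0.02, limma adjusted p = 0.410).

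Htr2a, the other Gq-coupled receptor tied to motor neuron excitability, varied more between rats of one group than any other of the 10, with an SD within groups of 0.39 on the log2 scale. Its log2 intensities were 6.92, 6.48, 7.36 and 6.39 at 3 days, against 6.39, 6.80, 6.17 and 7.31 in the 4-day controls. The groups overlapped almost fully, and the log2 difference was 0.12 (95% interval -0.40 to 0.64), or -0.070 without rat 3 of the 3-day group and -0.045 without 4-day control 3. The difference of Htr2a was above 0 at all 4 times, at 0.34 at 1 week, 0.28 at 2 weeks and 0.28 at 1 month, with every interval including 0. With 1 rat left out it ran from 0.18 to 0.56 at 1 week, 0.13 to 0.43 at 2 weeks and 0.13 to 0.44 at 1 month. The values at 3 days and at 1 week share the 4-day controls. At 3 days the difference was -0.025 with all 12 controls pooled, -0.064 against the 2-week controls and -0.13 against the 1-month controls. Against 4-day controls 1 and 2 alone it was 0.19.

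Htr2b, a receptor best known from heart, gut and vessels, lay near the filter level. Its log2 intensities were 5.36, 5.37, 5.48 and 5.57 at 3 days and 5.35, 5.24, 4.99 and 5.42 at 1 week, against 5.48, 6.23, 5.57 and 5.12 in the 4-day controls. Control 2 stood apart from all the other rats. The log2 difference was -0.16 at 3 days (95% interval -0.50 to 0.19) and -0.35 at 1 week (95% interval -0.70 to -0.0070, limma adjusted p = 0.999), and without control 2 the difference at 1 week was -0.14.

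Htr3a, the subunit that every functional Htr3 channel contains, had log2 intensities of 5.48, 6.50, 5.95 and 5.78 at 3 days, against 5.95, 6.01, 5.95 and 5.80 in the 4-day controls. The rats at 3 days held both the lowest and the highest value of the probe among all 24 arrays, and the log2 difference was 0.00042 (95% interval -0.28 to 0.28). At 1 week the values were 5.78, 5.59, 5.78 and 5.80, and all 4 lay at or below the lowest 4-day control, with a log2 difference of -0.19 (limma adjusted p = 0.999). Rat 5 at 1 week and 4-day control 4 held one and the same value, so the groups touched. Groups without overlap and with the transected rats lower made up 1.04% of all probes at 1 week.

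Of the Gs-coupled receptors, Htr4 had log2 intensities of 6.73, 6.64, 7.53 and 6.73 at 3 days, against 7.27, 6.86, 7.29 and 7.20 in the 4-day controls. Rats 1, 2 and 4 lay below every control and rat 3 lay above every control. The log2 difference was -0.25 (95% interval -0.62 to 0.13, limma adjusted p = 0.624) with rat 3 and -0.46 (limma adjusted p = 0.110) without it.

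Rat 3 of the 3-day group was the highest of its group for Htr1d, Htr2a, Htr2c, Htr4 and Htr7 and, together with rat 4, among the higher for Htr1b. Its mean over the 10 receptors was 6.69 on the log2 scale, against 6.38 to 6.46 in the other rats at 3 days and 6.64 to 6.68 in the 4-day controls. Its microglial marker mean of 9.10 was the lowest of the 4 rats at 3 days. Without it the log2 differences at 3 days were -0.62 for Htr1a (limma adjusted p = 0.0354), -0.52 for Htr1b (0.0792), -0.46 for Htr4 (0.110) and -0.36 for Htr2c (0.0838).

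Htr7, a Gs-coupled receptor linked to the activation of locomotor circuits, had log2 intensities of 6.63, 6.75, 6.86 and 6.80 at 3 days, against 6.87, 6.79, 6.86 and 6.79 in the 4-day controls. The difference was small, at -0.068 (95% interval -0.23 to 0.091). At 2 weeks the values were 6.93 and 6.78, against 7.03, 7.16, 7.16 and 6.96 in the 2-week controls, and both transected rats lay below every control. In the comparison at 2 weeks this held in 7.82% of all probes, and the groups did not overlap in either direction in 17.7%. The log2 difference of -0.22 (95% interval -0.42 to -0.028) did not pass the threshold (limma adjusted p = 0.859). With 2 rats against 4 an exact permutation test gave p = 0.133, where the smallest possible is 0.0667.

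Htr6, the third Gs-coupled receptor, had log2 differences between -0.022 and 0.022 at the 4 times. Since most of its arrays shared a single value, this flat record cannot be told apart from a probe that did not respond.

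**Figure D3:**
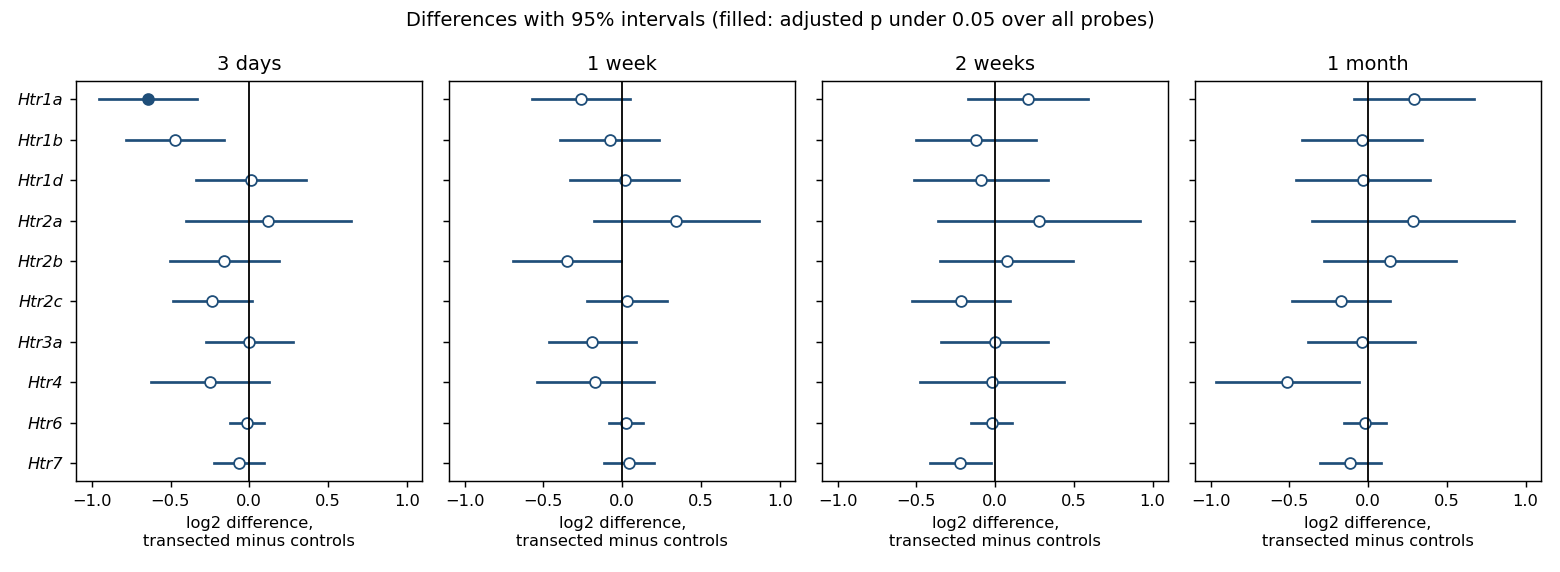
Log2 differences, transected minus matched controls, for the 10 receptors, with 1 panel for each of the 4 times, 95% intervals from the limma fit and filled points where the adjusted p over all probes was under 0.05. Htr1a at 3 days, at -0.64, is the single filled point.

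The later times gave no receptor past the threshold. By limma 0 of 10 receptors and 0% of all probes were called at 1 week, at 2 weeks and at 1 month, while 1 receptor at each of these times had an unadjusted p under 0.05, as did 4.44%, 5.29% and 3.44% of all probes in that order. Those receptors were Htr2b at 1 week, Htr7 at 2 weeks and Htr4 at 1 month. At 1 month Htr4 had log2 intensities of 6.56 and 6.91 in transected rats, against 6.84, 7.13, 7.49 and 7.51 in the 1-month controls, and the lowest control lay between the 2 transected rats. The log2 difference was -0.51 (SE 0.22, 95% interval -0.97 to -0.055, limma adjusted p = 1), and without the first transected rat it was -0.34.

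Htr1a did not pass the threshold at the later times. Its log2 intensities at 1 week were 6.07, 6.19, 6.28 and 5.94, against 6.25, 6.05, 6.67 and 6.56 in the 4-day controls, a difference of -0.26 (95% interval -0.57 to 0.050). At 2 weeks they were 6.40 and 5.96 in transected rats, against 5.94, 5.84, 6.05 and 6.05 in the 2-week controls. At 1 month they were 6.56 and 5.93, against 5.80, 5.98, 5.98 and 6.07 in the 1-month controls, so that at both of these times 1 transected rat stood above all controls and the other lay among them.

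The differences of Htr1a were 0.21 at 2 weeks and 0.29 at 1 month, with intervals that included 0. Tested directly, the effect at 3 days minus that at 2 weeks was -0.85 (SE 0.24, limma adjusted p = 0.313), and that at 3 days minus that at 1 month was -0.93 (SE 0.24, limma adjusted p = 0.184). Neither passed the threshold, and 0.0904% of all probes did so in each of these tests.

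The rats at 3 days and at 1 week can also be set against each other without the shared controls. Htr1b showed no overlap between 6.90, 7.01, 7.24 and 7.25 in rats at 3 days and 7.56, 7.46, 7.29 and 7.64 in rats at 1 week (log2 difference -0.39, SE 0.15, limma adjusted p = 0.241). Groups without overlap made up 2.96% of all probes with the rats at 3 days lower and 6.68% in either direction. Htr1a differed by -0.38 (limma adjusted p = 0.256) and Htr2c by -0.27 (limma adjusted p = 0.362). No receptor passed the threshold, which 2.47% of all probes did.

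Over the 10 receptors the median log2 difference was -0.11 at 3 days, -0.033 at 1 week, -0.022 at 2 weeks and -0.037 at 1 month, beside medians over all probes tested of -0.0082, -0.00064, -0.0018 and -0.012 at the same times. At 3 days 7 of the 10 lay below 0, as did 52.4% of all probes. In the average of the 4 times 9 of the 10 lay below 0, Htr2a being the exception, as did 53.2% of all probes, and 0 passed the threshold (0.404% of all probes did). The lowest of these averages was that of Htr4, at -0.24 (SE 0.11, limma adjusted p = 0.536).

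The uninjured groups also differed from each other, by up to 0.56 on the log2 scale among the 10 receptors. Htr2c had log2 intensities of 9.10, 9.07, 9.29 and 9.27 in the 1-month controls, against 8.66, 8.57, 8.62 and 8.66 in the 2-week controls, a difference of 0.56 (SE 0.12, limma adjusted p = 0.0112). It was the 1 receptor of 10 called between control groups, where 10.2% of all probes were called for this pair. The 2 control groups did not overlap, as in 10.6% of all probes with the 1-month controls higher and 23% in either direction. The linear intensity averaged 583.6 ± 46.4 in the 1-month controls and 396.0 ± 11.4 in the 2-week controls (SD, n = 4 each). Markers of other cells were higher in the same comparison, namely 5 of 9 astrocyte markers, 2 of 9 oligodendrocyte markers and 1 of 7 vessel markers, as was 1 of 10 neuron markers, beside 6.18% of all probes. The astrocyte marker mean was 10.29 to 10.47 in the 1-month controls, against 9.76 to 10.31 in the 2-week controls, and the part of these cells in the Htr2c value was not tested.

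For Htr1a the log2 difference from the 4-day controls was -0.41 in the 2-week controls, without overlap (limma adjusted p = 0.223), and -0.43 in the 1-month controls, with overlap (limma adjusted p = 0.231). For Htr7 it was 0.25 in the 2-week controls (limma adjusted p = 0.165) and 0.27 in the 1-month controls (limma adjusted p = 0.153), without overlap in either. For Htr2c it was 0.40 in the 1-month controls, without overlap (limma adjusted p = 0.180). None of these passed the threshold, which 0% of all probes did between the 2-week and 4-day controls and 0.0043% between the 1-month and 4-day controls. Groups without overlap in either direction made up 5.16% and 5.58% of all probes in these comparisons. The microglial marker mean was 7.45 to 7.94 in the 2-week controls and 7.45 to 7.73 in the 1-month controls, against 7.31 to 8.84 in the 4-day controls. Its group medians were 7.60, 7.47 and 8.53 in that order. All 10 microglial markers were lower than in the 4-day controls in both comparisons, where 44.8% and 52.8% of all probes were lower. None of the 10 passed the threshold in either comparison, and their part in the receptor values was not tested.

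Which receptor was called at 3 days differed with which uninjured rats it was set against, a comparison added after the data had been seen. Against the 4-day controls it was Htr1a. Against the 2-week controls it was Htr7 (log2 difference -0.32, limma adjusted p = 0.0102), and Htr1a differed by -0.23 (0.346). Against the 1-month controls 3 receptors were called, Htr2c (-0.64, limma adjusted p = 0.0014), Htr7 (-0.34, 0.0048) and Htr1b (-0.57, 0.0132), and Htr1a differed by -0.22 (0.376).

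With all 12 controls pooled the called receptor was Htr1b (log2 difference -0.45, limma adjusted p = 0.0267), and Htr1a differed by -0.36 (0.129). Weighting the arrays by quality had the same outcome, with Htr1b called (-0.62, limma adjusted p = 0.0478) and Htr1a at -0.49 (0.104). The 2 controls with the highest Htr1a, numbers 3 and 4 of the 4-day group, had the lowest quality weights of all 24 arrays, 0.328 and 0.477. Against 4-day controls 1 and 2 alone Htr1a differed by -0.42 (limma adjusted p = 0.315). In all of these settings the differences of Htr1a and Htr1b at 3 days were below 0. These comparisons share the rats at 3 days, and survival time and the handling of each control group cannot be told apart in them.

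**Figure D4:**
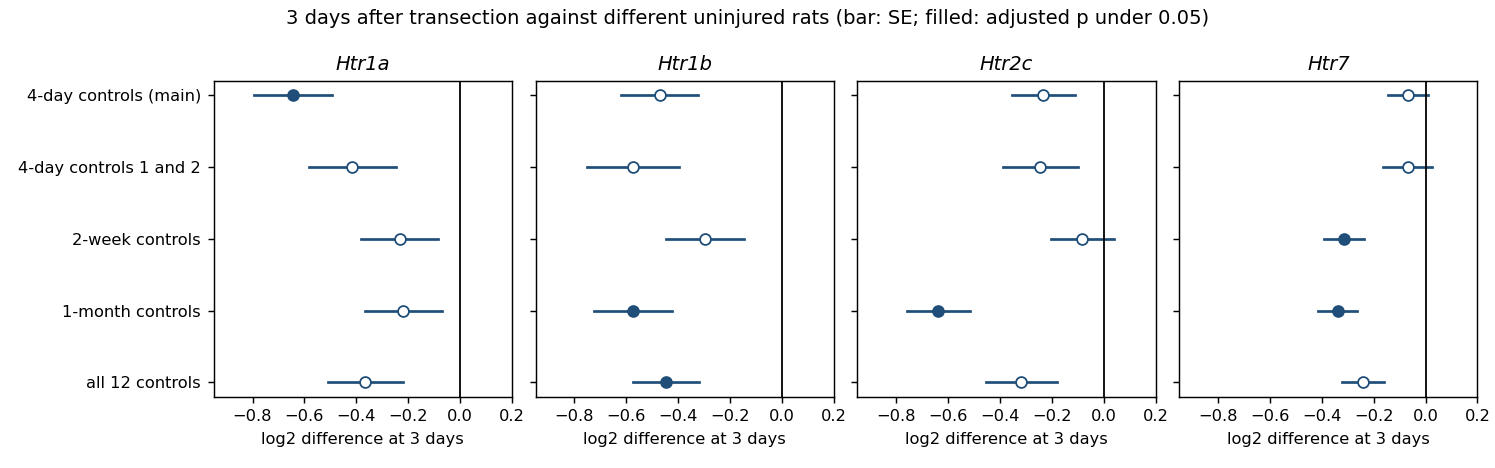
Log2 difference at 3 days (point, with 1 SE either side) of Htr1a, Htr1b, Htr2c and Htr7, set against 5 choices of uninjured controls, with filled points where the limma adjusted p was under 0.05. Htr1a is filled against the 4-day controls alone, at -0.64, and lies at -0.22 against the 1-month controls.

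The array held 4 further serotonin receptors, the Gi/o-coupled Htr1f, the channel subunit Htr3b, and Htr5a and Htr5b. None of the 4 passed the threshold at any of the 4 times. Htr1f had log2 intensities of 5.78, 6.65, 5.94 and 5.40 at 3 days, against 6.31, 6.32, 6.90 and 6.66 in the 4-day controls. Rat 2 lay among the controls and the other rats below them, with a log2 difference of -0.60 (SE 0.21, limma adjusted p = 0.149).

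Genes that make, store, take up and break down serotonin gave 0 of 11 past the threshold at every time. Ddc, the decarboxylase that makes both serotonin and dopamine, had the smallest p among them at 3 days (log2 difference -0.69, limma adjusted p = 0.0772). Of the markers of serotonin neurons, Tph2, the neuronal tryptophan hydroxylase, had a mean log2 intensity of 5.30 and Slc6a4, the serotonin transporter, one of 5.64, both within the range of the olfactory receptor probes, and each differed by -0.01 at 3 days.

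Downstream of the receptors, of 14 genes of the Gs and cyclic AMP route tested at 3 days 3 were lower (0.886% of all probes were) and none was higher, and their median log2 difference was -0.23, beside -0.0082 over all probes. Ppp1r1b, which encodes the phosphatase inhibitor DARPP-32, fell by 0.56 (limma adjusted p = 0.0021), Prkar2b, a regulatory subunit of protein kinase A, fell by 0.52 (0.0330), and Rapgef4, a guanine nucleotide exchange factor that cyclic AMP activates directly, fell by 0.44 (0.0429).

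Of 9 Gi/o genes and potassium channels 1 was called at 3 days, Kcnj5, a subunit of the channels that Gi/o proteins open, which was higher (log2 difference 0.70, limma adjusted p = 0.0278, 2% of all probes higher by this rule). Its probe lay near the filter level, with a mean log2 intensity of 5.36. The other subunits of the list, Kcnj3, Kcnj6 and Kcnj9, had log2 differences of -0.29, -0.38 and -0.01 (limma adjusted p = 0.271, 0.156 and 0.984). None of the 10 Gq and phospholipase C genes was called, and the smallest p among them was that of Plcb4, a phospholipase C (log2 difference -0.36, limma adjusted p = 0.0626). Of 21 genes for proteins that bind, edit or desensitise the receptors 1 was called, S100a10, also called p11, which brings Htr1b and Htr4 to the cell surface and was higher by 0.60 (limma adjusted p = 0.00096). S100a10 is also expressed in glia and vessels, and 7 of 10 microglial markers were higher in the same rats. Their part in the S100a10 value was not tested.

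Adrenergic and dopamine receptors, the other monoamine receptors of the cord, gave 0 of 12 past the threshold at 3 days, beside 2.89% of all probes. Of the 12, 10 lay below 0, as did 52.4% of all probes. Their median log2 difference was -0.080, beside -0.0082 over all probes. The smallest p was that of Drd2, a Gi/o-coupled dopamine receptor (log2 difference -0.38, limma adjusted p = 0.302). None of the genes of these lists was called at 1 week, 2 weeks or 1 month.

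Over the 24 arrays and 12990 genes with a single symbol, the genes whose levels ran most like those of Htr1a were Nek4 (Pearson r = 0.75, Spearman rho = 0.80), Prp2l1 (0.73 and 0.62) and Mthfd2 (0.72 and 0.51). None of these 3 was called at 3 days. Those most like Htr2c were Got1 (0.90 and 0.87), Wdr7 (0.89 and 0.84) and Prkaca (0.88 and 0.88), the last being a catalytic subunit of protein kinase A. The arrays come from 7 groups and were normalised together, so these values are descriptions.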

How the data were processed

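RNA of laser-dissected TPS neurons was hybridised to Affymetrix Rat Gene 1.0 ST arrays after amplification. The deposited values are intensities on a linear scale that the authors obtained by RMA with quantile normalisation in GeneSpring GX (version not given in the sources used here). They run from 17, held by 0.356% of values, to 7979.81, and array medians lie between 73.6 and 81.3. Precision is set by how many arrays each group has, and neither raw scans nor scan batches were used here. The highest correlation between 2 arrays of a group was 0.992, and no 2 arrays held identical values.

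Of 27342 probes, 15097 carried 1 gene symbol in the platform annotation, 323 several and 11922 none. If a gene had several probes the brightest was to be used. Values were log2 transformed, and 23240 probes with a mean above the lowest 15 percent entered 1 limma 3.58.1 fit (R 4.3.3) of 7 group means with empirical Bayes moderation, tested on simulated data. Benjamini-Hochberg adjustment ran over those probes, with a threshold of 0.05. Single receptors were also tested by exact two-sided permutation. Groups were taken from the labels. Alternatives were other filters, normalisations, moderation, array weights, control groups, the methods' t-test, a replicate block and leaving out each rat. Receptors and gene lists were chosen with earlier results of these data known. Named genes were all 10 receptors, genes of the lists that were called or had the smallest p, Tph2 and Slc6a4, and the 3 genes most like a called receptor. Htr1f and the markers named beside the receptors fall partly outside that rule and were chosen after their values were seen.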

Additional observations from a re-analysis of the deposited data

Results flagged for a closer look

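In 50 groups of 4 rats (the 10 receptors and the 5 groups of that size), 9 held a rat whose log2 intensity stood apart from the other 3, where chance gives about 1 in 20. 5 of the 9 came from the Htr6 probe, on which most arrays share 1 value: 5.51 in rat 2 at 3 days, 5.66 in rat 5 at 1 week, 5.57 in 4-day control 3, 5.61 in 2-week control 2 and 5.59 in 1-month control 1. The other 4 were Htr4 at 7.53 in rat 3 at 3 days, Htr3a at 5.59 in rat 2 at 1 week, Htr2a at 6.59 in 1-month control 1 and Htr7 at 6.99 in the same control.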

How the results depend on the processing

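Of 1460 values of single receptors under 38 alternatives, 1354 kept their direction and their side of the threshold, 10 lost the call, 8 gained one and 88 turned in sign, with no value past the threshold on either side of such a turn. The count of receptors called at 3 days, 1 as reported, was 0 with the filter at the median (which drops the Htr1a probe), 0 with the compared groups alone, 0 by the methods' t-test and 0 against 4-day controls 1 and 2, 0 to 1 with each rat left out, and 3 against the 1-month controls. Without 4-day control 3 the receptor called was Htr1b (log2 difference -0.58, limma adjusted p = 0.0441) in place of Htr1a. The count at 2 weeks, 0 as reported, was 1 against the 1-month controls (Htr2c, -0.77, limma adjusted p = 0.0218). The other 242 of 250 counts were unchanged, though not always with the same receptor, as given above. The cause of these changes was not tested. Leaving out each rat in turn, Htr1a at 3 days ran from -0.75 to -0.54. Replicate numbers did not pair the rats (mean correlation of deviations 0.022 over 55 same-numbered pairs and -0.0063 over 189 others), and with the replicate block Htr1a at 3 days was -0.64 (limma adjusted p = 0.0259), with 1 receptor called.

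The 88 turned values follow, by setting. With quantile normalisation repeated they were, at 3 days Htr1d -0.027 and Htr3a -0.019, at 1 week Htr1d -0.014, at 2 weeks Htr3a 0.014. With cyclic loess they were, at 3 days Htr3a -0.0015, at 2 weeks Htr6 0.0099 and Htr3a 0.028. With all 12 controls pooled they were, at 3 days Htr2a -0.025, Htr1d -0.091 and Htr2b 0.092, at 1 week Htr7 -0.13, Htr1a 0.018, Htr1d -0.087 and Htr2c -0.052, at 2 weeks Htr2b -0.0096, at 1 month Htr1d 0.075, Htr1b 0.087, Htr2b -0.027 and Htr2c 0.15. With the replicate block they were, at 1 week Htr1d -0.013 and Htr6 -0.012, at 2 weeks Htr3a 0.014. Against 4-day controls 1 and 2 they were, at 3 days Htr1d -0.016 and Htr3a -0.055, at 1 week Htr1d -0.011. Against the 4-day controls they were, at 2 weeks Htr7 0.025, Htr1a -0.20, Htr1d 0.0033 and Htr2b -0.26, at 1 month Htr7 0.16, Htr1a -0.14, Htr1d 0.18, Htr1b 0.063, Htr2b -0.28 and Htr2c 0.23. Against the 2-week controls they were, at 3 days Htr2a -0.064, Htr1d -0.082 and Htr2b 0.18, at 1 week Htr7 -0.20, Htr1a 0.15, Htr1d -0.078 and Htr1b 0.096, at 1 month Htr1d 0.083, Htr1b 0.24 and Htr2c 0.38. Against the 1-month controls they were, at 3 days Htr2a -0.13, Htr1d -0.20 and Htr2b 0.26, at 1 week Htr7 -0.23, Htr1a 0.16, Htr1d -0.20, Htr2b 0.064 and Htr2c -0.37. With each rat left out, the ranges that cross 0 were, at 3 days Htr1d -0.13 to 0.14, Htr2a -0.070 to 0.33, Htr2b -0.32 to 0.053 and Htr3a -0.19 to 0.15, at 1 week Htr1b -0.19 to 0.063, Htr1d -0.13 to 0.14, Htr2c -0.036 to 0.093 and Htr6 -0.012 to 0.034, at 2 weeks Htr1a -0.0090 to 0.43, Htr1b -0.39 to 0.15, Htr2b -0.092 to 0.24, Htr3a -0.042 to 0.038, Htr4 -0.084 to 0.026 and Htr6 -0.030 to 0.00015, at 1 month Htr1a -0.023 to 0.60, Htr1b -0.21 to 0.13, Htr1d -0.21 to 0.14, Htr2b -0.087 to 0.36, Htr2c -0.37 to 0.025 and Htr3a -0.068 to 0.013. Values that were not called are described with their sign and the overlap of the rats for some receptors and times only. No change is claimed for any of them. With 1 probe per receptor, averaging probes could not differ from the reported values, and the t-test and the compared groups alone give no average of the 4 times.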
